A study of Mus musculus with 6 samples.

Results

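Replication-dependent and linker histone genes were described in total RNA-Seq of mouse colonic crypts. The members were all genes of the deposited table whose symbols follow the current or the older naming of the H1, H2A, H2B, H3 and H4 gene families. They were 63 of 18049 genes: 8 H1, 16 H2A, 16 H2B, 11 H3 and 12 H4 genes. The rule used no measured value. The study asked how GSK503, a small-molecule inhibitor of the histone methyltransferase EZH2, alters a mouse model of Lynch syndrome, a hereditary predisposition to colorectal cancer. All 6 mice were of the same model, in which a Villin-Cre transgene drives recombination in the intestinal epithelium and a knocked-in humanized *TgfβRII* allele carries a poly(A) microsatellite. All were fed a Western-style diet from 8 weeks of age. The GSK503-treated mice (n = 3) received 200 μg/kg in PBS by repeated tail vein injection in a 9-week trial, and the control mice (n = 3) received 20% captisol in PBS, so the agent and its vehicle were not the same between groups. Recombination is limited to epithelial cells by the Villin promoter, whereas the crypt preparations also hold other cells.

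H2A, H2B, H3 and H4 form the core of the nucleosome, and H1 binds the linker DNA between nucleosomes. Most of their genes lie in clusters, lack introns and are transcribed in S phase, when new DNA must be packaged. Their mRNAs are the known metazoan exception to polyadenylation: the 3′ end is a short stem-loop, bound by the protein SLBP and cut with the help of the U7 small nuclear ribonucleoprotein. Total RNA libraries can capture such transcripts. In crypts they mark dividing progenitors. EZH2 methylates lysine 27 of H3 protein, so H3 is also the substrate of the drug's target.

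The stem-loop was looked for within 200 bases after the stop codon on GRCm39, as a 16-base pattern of allowed bases around a 4-base loop. Pairing between the sides of the stem was not checked. For members the stop codon of every annotated transcript was tried, and for other genes only the first stop codon. A match was found in 59 of 63 members (93.651%) and in 114 of 21707 other protein-coding genes (0.525%). No match was found in *H1f0*, *H1f10*, *H2ac22* or *H2bc21*. The following 5 examples are shown because this element, and not a poly(A) tail, ends these mRNAs, and the capitals mark the stem and loop. The *H2ac13* element lies on the plus strand at chr13:21901009-21901024, that of *H2ac24* on the minus strand at chr13:22017199-22017214, that of *H3c8* on the plus strand at chr13:23720059-23720074, that of *H4c8* on the plus strand at chr13:23715628-23715643 and that of *H4c11* on the plus strand at chr13:21919607-21919622.
H2ac13: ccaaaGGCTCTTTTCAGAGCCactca
H2ac24: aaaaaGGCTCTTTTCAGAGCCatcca
H3c8: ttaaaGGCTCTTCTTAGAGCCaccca
H4c8: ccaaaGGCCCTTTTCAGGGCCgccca
H4c11: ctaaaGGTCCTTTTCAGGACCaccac
The element of *H2ac13* and *H2ac24* was also that of 13 of the 16 H2A genes, 12 of the 16 H2B genes, 7 of the 11 H3 genes and 5 of the 8 H1 genes. All 12 H4 genes had another stem, in the form of *H4c8* in 7 of them.

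Head to head with an H2B gene sit 11 H2A genes, their start codons between 278 and 334 bp apart. Such a pair shares the DNA from which both are transcribed, and 3 of these stretches are shown because the values of the paired genes are compared below. The capitals mark the CCAAT motif, the TATA box spelled TATAAA and the octamer spelled ATTTGCAT on either strand, each searched as spelled, and no occurrence of one overlapped another. Each stretch reads toward the H2A gene. That of *H2ac13* and *H2bc13* is the plus strand of chr13:21900374-21900531 (GRCm39), cut 60 bases in from each start codon because the annotation gives these genes no 5′ UTR. Those of *H2ac24* and *H2bc24* (chr13:22017678-22017910, minus strand) and of *H2ac20* and *H2bc21* (chr3:96128197-96128434, minus strand) run between the annotated starts.
H2ac13/H2bc13: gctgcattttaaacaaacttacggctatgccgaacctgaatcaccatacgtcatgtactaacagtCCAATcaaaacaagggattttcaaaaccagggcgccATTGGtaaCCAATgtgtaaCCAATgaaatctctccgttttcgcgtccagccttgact
H2ac24/H2bc24: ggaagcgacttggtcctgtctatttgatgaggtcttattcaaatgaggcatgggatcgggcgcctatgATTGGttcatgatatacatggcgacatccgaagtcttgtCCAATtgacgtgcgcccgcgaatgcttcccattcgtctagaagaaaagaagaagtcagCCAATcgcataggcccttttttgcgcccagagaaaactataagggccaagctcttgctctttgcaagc
H2ac20/H2bc21: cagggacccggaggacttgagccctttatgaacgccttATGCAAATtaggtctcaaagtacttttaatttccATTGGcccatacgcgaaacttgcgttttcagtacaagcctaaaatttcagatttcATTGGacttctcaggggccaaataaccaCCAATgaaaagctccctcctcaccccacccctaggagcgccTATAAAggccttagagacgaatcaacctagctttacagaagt
CCAAT was present between 2 and 5 times in each of the 11 gaps, TATAAA in 7 gaps and the octamer in 4. In RefSeq promoters of GRCm38.p6, from 250 bases before to 50 after the start, 57 members could be matched. Of those, 82.456% held CCAAT, compared with 37.92% of all 27025 promoters, and TATAAA was in 56.14% compared with 14.161%. CCAAT was in every matched H2A, H2B and H3 promoter but in 27.273% of the H4 promoters. The octamer was in 5 H2A and 5 H2B promoters and in no matched H1, H3 or H4 promoter.

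The deposited value of a gene is its estimated count per TMM-scaled library size (a CPM), from libraries with estimated totals between 108162800 and 135085000 counts. A value of 3 counts came to between 0.0228 and 0.0271, which covers counting error only. The fit was limma, run on log2(value + 0.1) with Benjamini-Hochberg adjustment over the 16670 genes with at least 0.1 in at least 3 mice, and all 63 members passed this filter. log2FC is GSK503 minus control on that scale and understates the change of low genes. Calls needed an adjusted p below 0.05 together with an absolute log2FC over 0.25, and a second count used an adjusted p below 0.1. An exact permutation test of 3 mice against 3 cannot give a two-sided p under 0.1. *Xist*, transcribed from the inactive X chromosome of females, lay between 825 and 1236 in the GSK503-treated mice and between 0.419 and 0.936 in the control mice, and the Y-linked *Ddx3y* was at most 0.0915 in the treated mice and at least 61.4 in the control mice, so sex and treatment cannot be told apart in any value below. The epithelial markers were high in every mouse, with *Epcam* between 1802 and 2032.

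The core histone genes had somewhat higher values after GSK503, and few of them passed the test singly. Of the 63 members, 59 had a log2FC above 0, where 48.9% of all tested genes did, and the median was 0.34 compared with -0.01 over all tested genes. At an adjusted p below 0.05, 1 member was called higher and none lower, against 0.498% of all tested genes called higher and 0.144% called lower. At an adjusted p below 0.1, 6 members were called higher (1.41% of all tested genes) and none lower (0.558%). At an unadjusted p below 0.05, 35 members were higher (7.06% of all tested genes) and none lower (6.27%). The treated mice were all higher than the control mice in 15 members (9.84% of all tested genes), and none lay below (9.22%). These counts depended on single mice: without GSK503 mouse 3, 15 members were called at an adjusted p below 0.05 and 32 below 0.1, whereas without control mouse 3 none was called at either, and leaving out any other mouse left 1 or 2 below 0.1. Counts over all tested genes also moved with the mouse left out, as given in the closing section for an adjusted p below 0.05. Below 0.1 they were not taken, so the member counts there have no such share beside them. With library size alone as the scaling, 53 members had a log2FC above 0, and the median of all tested genes moved to -0.12. In bulk RNA, more S-phase cells and more histone mRNA in each such cell cannot be told apart.

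The 5 types did not move alike. The 16 H2A genes summed to 752, 926 and 804 in control mice 1, 2 and 3, against 1540, 1332 and 1068 in GSK503-treated mice 1, 2 and 3. Every treated sum was above every control sum, and the ratio of the group means was 1.59. H2B genes summed to 840.3, 931 and 765 in the controls, against 1165, 1173 and 840.0 in the treated mice, and GSK503 mouse 3 lay among the control mice. The ratio of means was 1.25 for H2B, 1.26 for H3, 1.28 for H4 and 1.04 for H1. Sums of H3 and H4 in GSK503 mouse 3 (792 and 1171) were also within the control range, of 689 to 838 for H3 and 1027 to 1275 for H4. The plot of summed values by histone type shows GSK503 mice 1 and 2 close together in H2B, H3 and H4, and H2A as the type in which the groups stand apart.

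**Figure D1:**
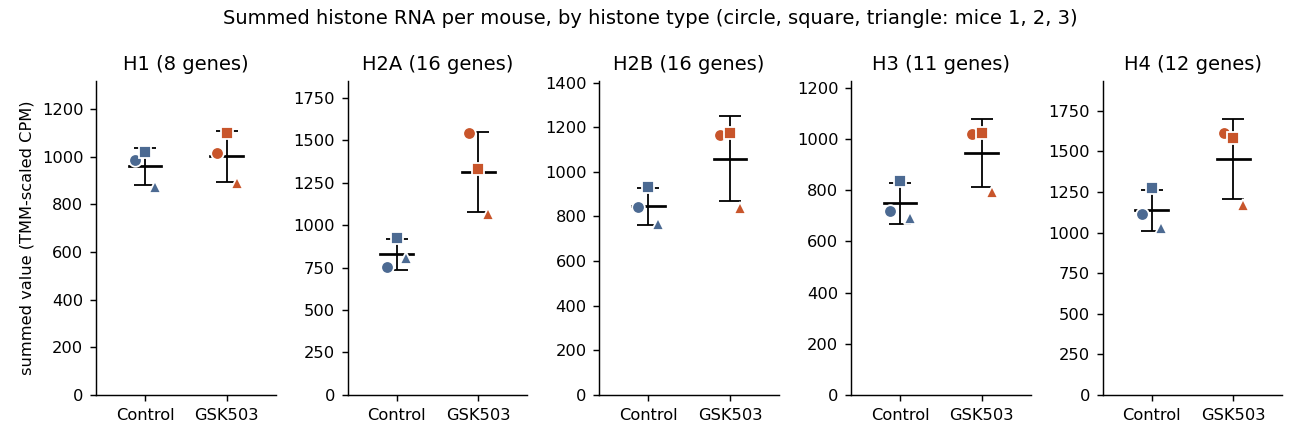
Summed deposited value (TMM-scaled CPM, linear axis from 0) of the genes of each histone type in each mouse, with control mice in blue and GSK503-treated mice in orange. Circles, squares and triangles are mice 1, 2 and 3, the horizontal lines the group means and the bars 1 SD (n = 3), and H2A is the type with all treated mice above all control mice.

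H2A had the largest median log2FC of the 5 types, 0.55. All 16 H2A genes had a log2FC above 0, 14 had an unadjusted p below 0.05, and 9 had all treated mice above all control mice. *H2ac13*, a gene of the proximal chromosome 13 cluster (chr13:21900592-21900984, a single coding exon), read 43.6, 74.3 and 55.5 in control mice 1, 2 and 3, against 156.5, 109.0 and 114.6 in the treated mice. Its lowest treated mouse lay above its highest control mouse. It rose, with a log2FC of 1.15 (SE 0.19, adjusted p = 0.0330 in limma), and was the only member called at 0.05. Of its 76-base windows, the read length, 16.7% occur in no other member and 0.629% in no other annotated transcript. Reads from the windows shared with other members had to be divided among copies by the authors' estimate of counts. Without the intensity trend its adjusted p was 0.234.

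Another 4 H2A genes passed the second threshold. *H2ac19*, the H2A gene with the highest level per kilobase of exon (615 as the mean of all mice), read 239, 294 and 249.7 in the controls, against 439, 406 and 322 in the treated mice. The groups did not overlap, and the log2FC was 0.57 (SE 0.12, adjusted p = 0.0812 in limma). *H2ac24* read 153, 233 and 214 in the controls, against 438, 368 and 272 in the treated mice, again without overlap, and its log2FC was 0.84 (SE 0.19, adjusted p = 0.0859).
*H2ac11* was lower in level, at 9.90, 13.8 and 11.5 in the controls, against 23.4, 21.5 and 15.4 in the treated mice, and its log2FC was 0.77 (SE 0.18, adjusted p = 0.0949). *H2ac22* stood out for the closeness of its control mice, at 14.9, 14.4 and 14.5, beside 34.2, 26.5 and 18.6 in the treated mice. Its log2FC was 0.81 (SE 0.19, adjusted p = 0.0971), and it is the H2A gene without a stem-loop match. In both genes the groups did not overlap, with GSK503 mouse 3 the lowest of the treated mice.

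Several H2A genes are near copies of each other, and the single values of *H2ac23* and *H2ac24* moved against each other in control mouse 1. *H2ac23* read 40.0 in control mouse 1 and between 0.706 and 5.91 in the other mice. Its near copy *H2ac24* had its lowest value in that same control mouse. Summed, the pair read 193, 233 and 217 in the controls, against 444, 372 and 277 in the treated mice, which did not overlap, with a log2FC of 0.74 (SE 0.15, adjusted p = 0.0682). For *H2ac18* and *H2ac19*, every 76-base window of the annotated exons also occurs in another annotated transcript, which can belong to a gene overlapping them. This pair summed to 285, 335 and 279 in the controls, against 495, 468 and 379 in the treated mice, with a log2FC of 0.57 (SE 0.11, adjusted p = 0.0620). Summing the 6 such pairs of all types left 6 members or pairs called at an adjusted p below 0.1.

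**Figure D2:**
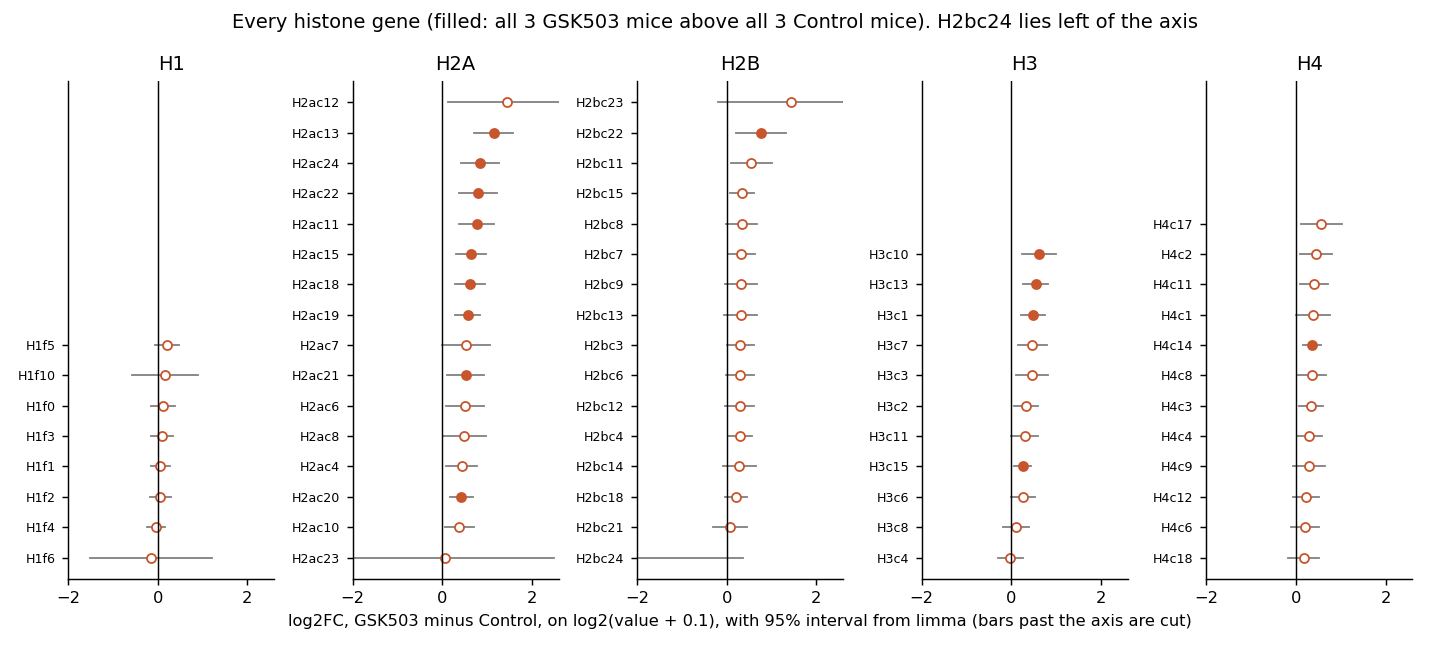
log2FC of each of the 63 histone genes (GSK503 minus control, on log2(value + 0.1)) by histone type, with the 95% interval from limma. Filled points have all 3 treated mice above all 3 control mice, which holds for 9 H2A, 1 H2B, 4 H3 and 1 H4 gene, and most points of the 4 core types lie right of 0 while those of H1 lie around it.

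H2B genes, which pair with H2A in the nucleosome, had a median log2FC of 0.31. None was called at either threshold, 6 of 16 had an unadjusted p below 0.05, and 1, *H2bc22*, had all treated above all control mice. *H2bc18*, on chromosome 3, had the highest H2B level per kilobase (337) and read 124, 128 and 105 in the controls, against 147, 148 and 119 in the treated mice. GSK503 mouse 3 lay below control mice 1 and 2, and the log2FC was 0.21 (SE 0.11, adjusted p = 0.451 in limma). The annotated exon length behind its level was 381 bases. It was 1362 for *H2bc3* and 3088 for *H2bc4*, whose mean values were higher than those of *H2bc18* in both groups. *H2bc24* was the only member with a listed value of 0, in GSK503 mice 1 and 3. It read 24.6, 6.44 and 2.20 in the controls, against 19.3 in GSK503 mouse 2, and its log2FC was -3.63 (SE 1.78, adjusted p = 0.428). Of its 76-base windows 10.1% occur in no other member, *H2bc23* being its near copy, and the sum of both read 26.8, 26.98 and 24.5 in the controls, against 42.7, 38.8 and 25.6 in the treated mice, with a log2FC of 0.42 (SE 0.17, adjusted p = 0.328).

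Within the 11 head-to-head pairs, the H2A gene had the larger log2FC in 10 and the H2B gene in *H2ac23* and *H2bc23* alone. The median difference of log2FC, H2A minus H2B, was 0.22, and both genes lay above 0 in 10 pairs. The H2A to H2B ratio of a mouse does not depend on the scaling of its library, apart from the pseudocount. Many genes of these pairs share sequence with other members, so their values and ratios also rest on the division of reads among copies. Among them are *H2ac13* and the near copies *H2ac23* and *H2ac24*, and *H2bc23* and *H2bc24*. For *H2ac13* and *H2bc13* the log2 ratio was 1.75, 2.04 and 2.13 in the controls, against 3.05, 2.46 and 2.92 in the treated mice. For *H2ac15* and *H2bc15* it was -0.04, 0.22 and 0.27 in the controls, against 0.58, 0.36 and 0.40 in the treated mice. For *H2ac20* and *H2bc21* it was 2.16, 2.51 and 2.55 in the controls, against 2.99, 2.59 and 2.66 in the treated mice. In these 3 pairs every treated ratio was above every control ratio, in the other 8 the ratios overlapped, and in no pair were all treated ratios below. These ratios were not tested, and no share over other pairs of genes was taken. In the last of the 3 pairs, *H2bc21* is the H2B gene without a stem-loop match, and its log2FC was 0.08. The first and the last of these 3 pairs are among the shared stretches printed above, the first without a TATA box or octamer in its gap and the last with both.

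**Figure D3:**
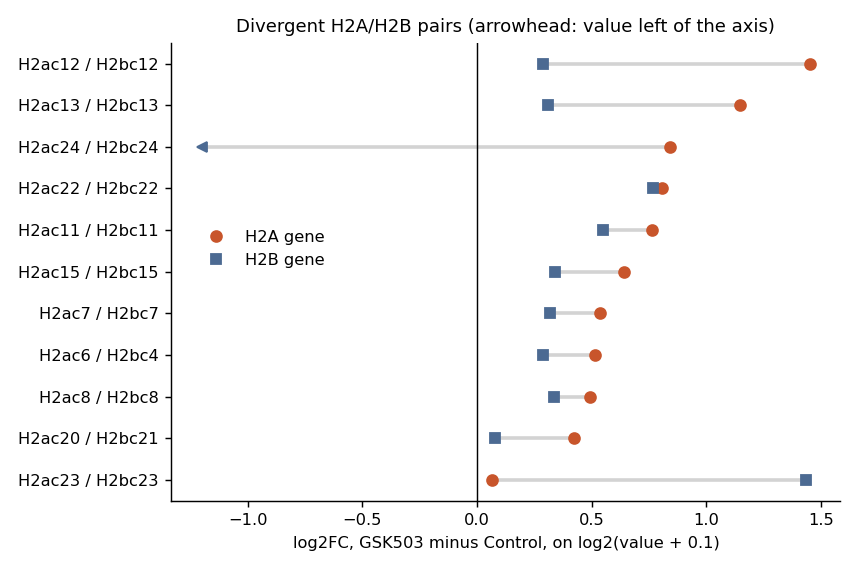
log2FC (GSK503 minus control, on log2(value + 0.1)) of the H2A gene (orange circle) and the H2B gene (blue square) of the 11 head-to-head pairs, joined by a line and sorted by the H2A value. The H2A gene lies to the right in 10 of 11 pairs, and the arrowhead stands for *H2bc24*, at -3.63.

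H3 genes had a median log2FC of 0.33, with 10 of 11 above 0 and 7 at an unadjusted p below 0.05. *H3c13*, on chromosome 3, read 54.0, 55.1 and 45.6 in the controls, against 77.7, 86.3 and 62.3 in the treated mice. The groups did not overlap, the log2FC was 0.54 (SE 0.12, adjusted p = 0.0944 in limma), and it was the H3 gene past the second threshold. *H3c1*, *H3c10* and *H3c15* also had all treated above all control mice, with log2FC of 0.48, 0.62 and 0.25. *H3c2* had the highest H3 level per kilobase (340.0) and read 179.9, 202 and 177 in the controls, against 260.2, 254 and 192 in the treated mice. Its GSK503 mouse 3 lay between the control mice, and the log2FC was 0.33 (SE 0.12, adjusted p = 0.272). *H3c4* was the H3 gene below 0, at 41.3, 44.0 and 34.7 in the controls, against 37.9, 46.1 and 34.3 in the treated mice, with wholly overlapping groups and a log2FC of -0.02 (SE 0.13, adjusted p = 0.957).

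All 12 H4 genes had a log2FC above 0, between 0.17 and 0.57, with a median of 0.35. None passed either threshold, and 8 had an unadjusted p below 0.05. *H4c8* had the highest level per kilobase of the H4 genes (508) and read 212, 244 and 172 in the controls, against 290.0, 292 and 223 in the treated mice. GSK503 mouse 3 was below control mouse 2, and the log2FC was 0.36 (SE 0.14, adjusted p = 0.311 in limma). *H4c14*, the chromosome 3 gene, was the H4 gene whose groups did not overlap, at 92.9, 103 and 89.7 in the controls, against 129, 129 and 111 in the treated mice, with a log2FC of 0.37 (SE 0.09, adjusted p = 0.106). All its 76-base windows occur in no other transcript, so no division of reads among copies is at stake there.

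Linker histone genes showed no call, and none of the 8 had non-overlapping groups or an unadjusted p below 0.05. *H1f1*, the H1 gene with the highest level per kilobase (157), read 113, 123 and 106 in the controls, against 119, 133 and 106 in the treated mice, with a log2FC of 0.06 (95% interval -0.16 to 0.27). *H1f2* read 226, 211 and 179 in the controls, against 214, 232 and 192 in the treated mice, and *H1f3* read 165, 188 and 159 and then 188, 207 and 157. The groups of all 3 genes overlapped throughout, with log2FC of 0.05 for *H1f2* and 0.10 for *H1f3*. The level per kilobase rests on the annotated exon length, 741 bases for *H1f1*, 1560 for *H1f2* and 7425 for *H1f3*. *H1f2* and *H1f3* had higher values than *H1f1* in every mouse.
*H1f4* read 235, 268 and 220.1 in the controls, against 236, 242 and 222 in the treated mice (log2FC -0.04, SE 0.09). *H1f5* read 45.4, 48.8 and 49.6 in the controls, against 57.3, 65.1 and 45.4 in the treated mice, and it had the largest H1 log2FC, 0.21 (SE 0.12, adjusted p = 0.510 in limma). In *H1f5* GSK503 mice 1 and 2 were above all control mice and mouse 3 was level with the lowest of them. *H1f0*, the replication-independent linker histone of differentiated cells, read 199.7, 178 and 157 in the controls, against 201, 217 and 164 in the treated mice, a log2FC of 0.12.
*H1f10*, another replication-independent H1, was between 0.696 and 1.36 in all mice. *H1f6*, the testis H1, was between 0.0381 and 0.507, from estimated counts between 5 and 56. Their log2FC of 0.17 and -0.15 had SE of 0.33 and 0.61. Under scaling by library size alone, which moved the median of all genes to -0.12, the H1 median was -0.03 and the H2A median 0.44, so the sign for H1 rested on the scaling.

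The members lie in 3 clusters, apart from *H1f0* on chromosome 15 and *H1f10* on chromosome 6. The 9 genes of the chromosome 3 cluster had a median log2FC of 0.42, and 7 of them had all treated above all control mice. In the proximal part of the chromosome 13 cluster, 23 genes had a median of 0.41, with 7 such genes and 4 past the second threshold. In the distal part, 29 genes had a median of 0.32, with 1 such gene (compared with 9.84% of all tested genes) and none past the second threshold (compared with 1.41% called higher). The order of H2A over H2B was present in each: median log2FC of H2A and H2B were 0.54 and 0.15 on chromosome 3, 0.81 and 0.33 in the proximal part, and 0.49 and 0.31 in the distal part. These differences between clusters were not tested. H2A genes were 4 of the 9 on chromosome 3, 7 of the 23 in the proximal part and 5 of the 29 in the distal part. Most H1 genes lay in the distal part and none on chromosome 3, so the clusters also differed in histone type.

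Many of the core histone genes share sequence. Of the 55 core histone genes, 25 had under 50% of their 76-base windows in no other member, and all 6 genes past the second threshold were among these. Those 25 had a median log2FC of 0.44 and a ratio of summed values, GSK503 to control, of 1.43. The other 30 had a median log2FC of 0.35 and a ratio of 1.27, with 29 above 0, 20 at an unadjusted p below 0.05 and none past either threshold. For the 17 genes with at least 75% of such windows the median was 0.30 and the ratio 1.23. Whether these groups of genes differ was not tested. The 25 genes held most of the 16 H2A genes, so the groups also differed in histone type. Of the 5 H2A genes with at least 50%, all lay above 0, with a median of 0.51, compared with 0.30 in the 10 H2B, 0.36 in the 6 H3 and 0.36 in the 9 H4 genes. In each library at least 76.3% of all values were whole multiples of a single count's worth, but only between 14.3% and 20.6% of the members' values were.

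The mice of a group differed. Relative to the mean of the control mice, the median of the 55 core genes on the log2 scale was 0.51 in GSK503 mouse 1, 0.49 in mouse 2 and 0.08 in mouse 3, beside -0.05, 0.15 and -0.09 in control mice 1, 2 and 3. For H2A alone it was 0.81, 0.64 and 0.31 in the treated mice and -0.11, 0.17 and 0.00 in the control mice. GSK503 mouse 3 thus lay within the control range for the core genes and above it for H2A. The 6 smooth muscle markers, among them *Myh11* and *Acta2*, summed to 122 in GSK503 mouse 3, to 4.52 and 4.26 in GSK503 mice 1 and 2 and to between 20.9 and 90.1 in the control mice. The 6 B cell markers summed to 3.66, 1.95 and 61.4 in the treated mice and to between 22.0 and 74.99 in the control mice, the 6 macrophage markers to 9.85, 5.82 and 60.3 and to between 25.2 and 44.2, and the 6 fibroblast markers to 25.1, 33.8 and 112.8 and to between 60.2 and 77.1. The sums of these 4 lists were thus lowest in the treated mice with the highest core histone values, and their part in the result was not tested. T cell markers (between 9.72 and 17.3), endothelial markers (between 10.4 and 20.4) and erythroid markers (between 2.50 and 7.498) had low sums in every mouse.

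**Figure D4:**
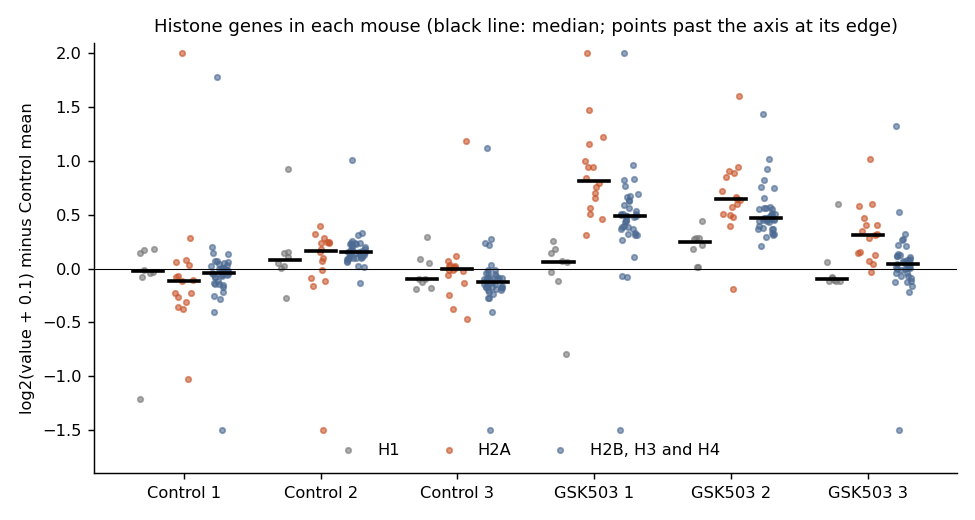
log2(value + 0.1) of every histone gene in each mouse, minus its mean over the control mice, with H1 in grey, H2A in orange and H2B, H3 and H4 in blue. Black lines are medians, points past the axis are drawn at its edge, and GSK503 mouse 3 lies near the control mice except in H2A (median 0.31).

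Genes of the cell cycle and of histone supply had medians at or below 0. Of 35 genes of DNA replication and S phase, none had an unadjusted p below 0.05 in either direction and the median log2FC was -0.01. *Pcna*, the replication clamp, read 111, 109.6 and 110.0 in the controls, against 123, 121 and 100.3 in the treated mice, with a log2FC of 0.05 (SE 0.09). The 3 of smallest p were *Mcm10*, *Gins2* and *Pola1*, with log2FC of -0.21, -0.26 and -0.17. Of 20 genes of G2 and mitosis, none was called, 4 were lower and none higher at an unadjusted p below 0.05, and the median was -0.11. The proliferation marker *Mki67* read 706, 646 and 768 in the controls, against 579, 559 and 477 in the treated mice, without overlap, with a log2FC of -0.39 (SE 0.10, adjusted p = 0.136 in limma). *Cenpf* and *Cenpe*, which act at the kinetochore, had log2FC of -0.23 and -0.21.

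Of 26 genes of histone mRNA transcription and 3′ processing, 1 was called lower at an adjusted p below 0.1 and none higher, and the median was -0.05. *Slbp*, the stem-loop binding protein, read 56.9, 62.3 and 56.7 in the controls, against 56.8, 64.3 and 58.7 in the treated mice, a log2FC of 0.03 (SE 0.08). *Npat*, the activator of histone gene transcription, had a log2FC of -0.11 (SE 0.10). The called gene was *Tut4*, a terminal uridylyltransferase, at 33.1, 36.0 and 39.6 in the controls, against 26.96, 23.3 and 24.7 in the treated mice, without overlap (log2FC -0.53, SE 0.10, adjusted p = 0.0505). *Cstf3* and *Hinfp* followed, at -0.28 and 0.19. None of 21 histone chaperone genes was called (median -0.07), and 1, *Atrx*, was lower at an unadjusted p below 0.05 (log2FC -0.24). *Supt16* and *Anp32e* had log2FC of -0.12 and -0.19.

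A list of 10 core histone genes outside the member rule, most of them replication-independent variants with polyadenylated mRNAs, had a median log2FC of 0.06. *H2aj* was the only one past the second threshold, at 46.1, 50.2 and 39.4 in the controls, against 72.0, 68.5 and 55.8 in the treated mice, without overlap (log2FC 0.53, SE 0.12, adjusted p = 0.0876 in limma). *H2ax*, the variant phosphorylated at DNA breaks, had a log2FC of 0.41 (adjusted p = 0.153) and *H4f16* one of 0.49 (adjusted p = 0.268). *H3f3a* and *H3f3b*, which encode H3.3, had log2FC of 0.04 and -0.19, and *H2az1* one of 0.13. Of 8 genes of H3K27 methylation, the X-linked demethylase gene *Kdm6a* was called higher (log2FC 0.76, SE 0.10, adjusted p = 0.0157), in a comparison in which sex differs as well. *Ezh2* read 46.7, 37.4 and 46.5 in the controls, against 36.6, 35.2 and 36.3 in the treated mice, without overlap (log2FC -0.27, SE 0.10, adjusted p = 0.291), and *Suz12* and *Ezh1* had log2FC of -0.39 and -0.24.

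Other RNAs without a poly(A) tail were also measured. Of 28 structured RNAs on the list, 11 were in the table, and all 11 had a log2FC above 0, with a median of 0.30; none was called and 2 had an unadjusted p below 0.05. *Rpph1*, the RNA of RNase P, read 20734, 18397 and 17976 in the controls, against 33064, 31652 and 26531 in the treated mice, without overlap (log2FC 0.67, SE 0.29, adjusted p = 0.366 in limma). *Terc*, the telomerase RNA, and *Rmrp*, the RNA of RNase MRP, had log2FC of 0.74 and 0.40. *Snora73a*, *Snora73b* and *Snora74a*, small nucleolar RNAs, were at 0.03, 0.04 and 0.10. *Rpph1* and *Rmrp* made up most of the summed value of the 11. The sum of the other 9, taken after their values were seen, was 1806, 2143 and 1161 in the controls, against 1772, 1941 and 1782 in the treated mice, and these groups overlapped. How far capture of RNAs without a poly(A) tail differed between libraries, and its part in the histone values, was not tested.

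**Figure D5:**
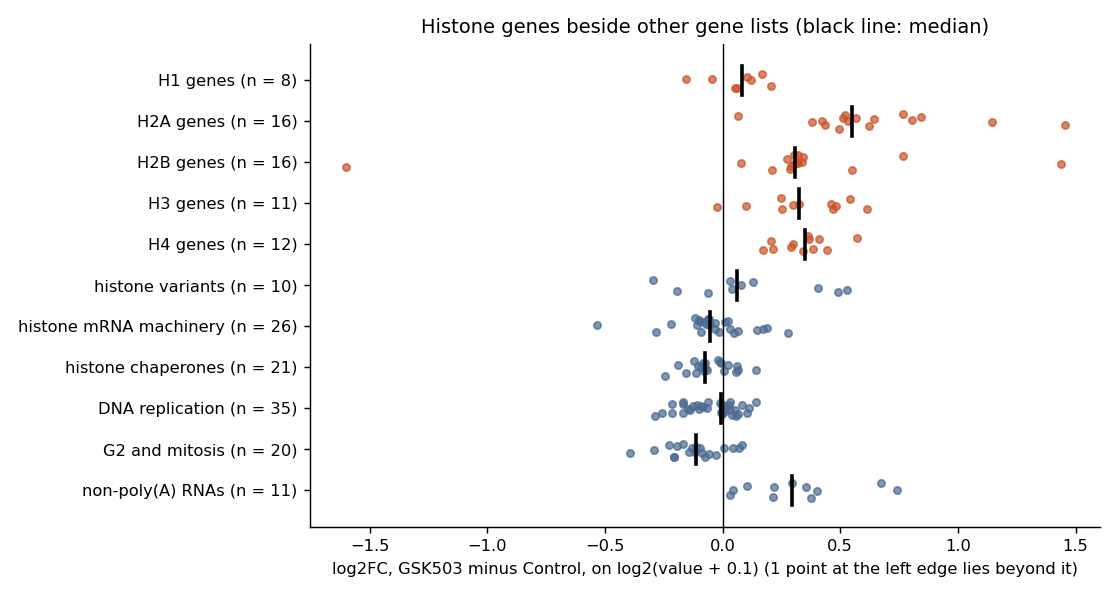
log2FC (GSK503 minus control, on log2(value + 0.1)) of each gene of the 5 histone types (orange) and of 6 other lists (blue), with black lines at the medians. The core histone types and the 11 RNAs without a poly(A) tail have medians between 0.30 and 0.55, and the lists for replication, mitosis, histone mRNA machinery and chaperones have medians between -0.11 and -0.01.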

How the data were processed

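Colonic crypt total RNA from 6 mice, 1 library each, was analysed, with groups and replicate numbers from the sample labels. The authors aligned paired-end 76-base reads to GRCm39 with STAR, estimated counts with RSEM and deposited a signal per gene that is an estimated CPM of the TMM-scaled library (edgeR). The annotation and the handling of strand in counting are not given in the sources used here. RSEM divides reads that match several genes. These are not counts, so limma (version 3.58.1, R 4.3.3; lmFit, eBayes with trend) was fitted on log2(value + 0.1) to genes reaching 0.1 in 3 or more mice (1379 did not). The worth of a count was read from the commonest low positive value, halved where many more values became whole multiples, and then refined. A value within 0.02 of a whole multiple was called whole. The fit was tested on simulated data. Exon lengths, stem-loops and shared 76-base windows came from GENCODE vM39 on GRCm39, promoters from RefSeq on GRCm38.p6. Per-mouse values are given for members past an adjusted p of 0.1, the member highest per kilobase of each type, all H1 genes and members below 0, and other lists by their 3 smallest p and fixed genes. Members and lists were chosen with earlier results of these data known. Alternatives were other scalings, pseudocounts, filters, limma options, limma-voom on recovered counts, leaving out X and Y genes or each mouse, a replicate block and, chosen after seeing the data, near copies summed. Replicates are separate mice. A detail of the genotype is not reported here.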

Additional observations from a re-analysis of the deposited data

How the results depend on the processing

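The median log2FC of the members and the ratios of summed values of H2A, H2B, H3 and H4 kept their direction under every alternative for which they were computed, while the number of members called did not hold. The H1 ratio, 1.04, crossed 1: it was 0.963 with library size alone, 0.976 with library size without members and structured RNAs, 0.999 without Control mouse 3 and 0.993 without GSK503 mouse 2. At an adjusted p below 0.05, where 1 member was called, none was without a filter, without the intensity trend, with robust empirical Bayes or with the replicate block, and leaving out each mouse gave between 0 and 15, the latter without GSK503 mouse 3. At an adjusted p below 0.1, where 6 were called, 10 were with median-of-ratios scaling or with genes of at least 1 in all mice, 2 with a pseudocount of 1, 1 without a filter, 0 without the trend and 2 with the replicate block, and leaving out each mouse gave between 0 and 32. Leaving out each mouse gave between 0 and 1 member called lower at either threshold, the 1 being *H2bc24* without GSK503 mouse 2. Of all tested genes, the 83 called higher became 9 without the trend and 23 with the block, and the 24 called lower became 178 with library size alone, 96 with library size without members and structured RNAs, 12 without a filter, 7 without the trend and 10 with the block, and leaving out each mouse gave between 20 and 116 higher and between 7 and 100 lower. The cause of these shifts was not tested. Same-numbered mice had correlations of their deviations from the group means of 0.03, -0.13 and -0.12, so the numbers were not taken to pair the mice.

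Some small values changed sign. With library size alone *H1f1*, *H1f2* and *H1f3* were at -0.055, -0.060 and -0.010, and without members and structured RNAs in the total *H1f1* and *H1f2* were at -0.037 and -0.042. With limma-voom *H1f6* was at 0.077. Leaving out each mouse gave -0.022 to 0.14 for *H1f1*, -0.051 to 0.31 for *H1f10*, -0.043 to 0.13 for *H1f2*, -0.11 to 0.036 for *H1f4*, -0.76 to 0.31 for *H1f6* and -0.14 to 0.069 for *H3c4*.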
